A study of Mus musculus with 10 samples.

Results

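Astrocyte genes were examined in the hippocampus of mice with and without overexpression of PGC-1α, a coactivator of mitochondrial gene transcription, in neurons. The 10 genes were listed by symbol as common astrocyte markers: Gfap, Vim, Slc1a2, Slc1a3, Glul, Aqp4, Gja1, Aldh1l1, S100b and Sox9. They were represented by 19 of the 56605 gene probes on the array, found through the RefSeq accession of each probe, and by 10 of the 23462 named genes. All probes of each gene are described, and a gene was represented by whichever of its tested probes had the highest mean signal.

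Both groups carried a PGC-1α transgene at the Rosa26 locus that a floxed PGK-neo-STOP cassette silences, on a C57BL/6 background. The nPGC-1α mice also carried Eno2-Cre, which removes the cassette in cells with an active neuronal enolase promoter, and they expressed IRES-eGFP. PGC-1αf/f littermates without Cre were the controls. Total RNA of the hippocampus was hybridised to 1-colour arrays, with 5 arrays per group, in the basal state without carotid artery surgery. The labels give all mice as male and 12 weeks old. They also give neuron as the cell type, although the material was hippocampal tissue. Each of the 10 astrocyte genes had a probe well above background on all 10 arrays.

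Astrocytes take up glutamate and potassium, convert glutamate to glutamine, and line the blood vessels of the brain with end-feet rich in water channels. In injured or inflamed tissue they become reactive, with more intermediate filament protein such as GFAP. None of the listed genes is limited to astrocytes: oligodendrocytes also express Glul and S100b, vessel cells express Vim, and neural stem cells of the dentate gyrus express Gfap and Sox9. The comparison asks whether astrocyte transcripts differed when PGC-1α was overexpressed in a different cell type, the neuron.

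Some arrays went against their labels or stood apart. The Y-linked gene Eif2s3y was low on 6 arrays despite the label male, and high on the other 4, which were replicate 1 of the controls together with replicates 1, 3 and 5 of the nPGC-1α mice. The X-linked transcript Xist read -3.28 to -2.43 on 5 of the 6 arrays, but -5.34 on PGC-1αf/f replicate 5, beside -5.80 to -4.91 on the 4 arrays, so that replicate 5 matched neither set of arrays. Ppargc1a, the gene of PGC-1α, differed by 0.00 (limma adjusted p 0.99), and whether its probes read the transgene is not known, so every direction below rests on the labels. Between 74.5% and 81.5% of gene spots were well above background in control mice, against 67.2% to 73.4% in nPGC-1α mice (exact permutation p 0.00794, the smallest that 5 against 5 can give, and 0.0159 adjusted over 4 array measures). The background noise was 5.16 to 8.98 and 10.7 to 20.9 signal units (exact permutation p 0.00794, adjusted 0.0159). Slide 1 carried replicates 1 to 4 and slide 2 carried replicate 5 of each group. Within slide 1 each group had its own row, and effects of the row cannot be told apart from those of the group.

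No astrocyte gene passed the test for a difference between the groups. By the probe that stood for each gene, 0 of 10 genes had an adjusted p under 0.05 in limma, where 0.00255% of all 39142 tested probes did, and 0 of 10 had an unadjusted p under 0.05, where 8.21% of the 17597 named genes did. The differences, nPGC-1α minus PGC-1αf/f on the log2 scale, ran from -0.20 for Gfap to 0.33 for Gja1, by a dim probe. The brightest Gja1 probe, left untested for its outlier spots, differed by 0.07 with all spots kept. The differences of the 10 genes were negative for 9 and positive for 1, with Aldh1l1 at 0.00 after rounding. Under quantile normalisation they were negative for 4 and positive for 6. Their median was -0.05, beside -0.02 over all named genes and -0.04 over all probes, and it was 0.04 under quantile normalisation. Among the 4 arrays with high Eif2s3y, 1 against 3, the median was -0.22 over the 7 genes with a value there, where the single control array was PGC-1αf/f replicate 1, the highest array for most of the genes. Among the other 6 arrays, 4 against 2, it was -0.04 over all 10 genes. In these tissue samples, fewer astrocytes and less RNA per astrocyte cannot be told apart.

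**Figure D1:**
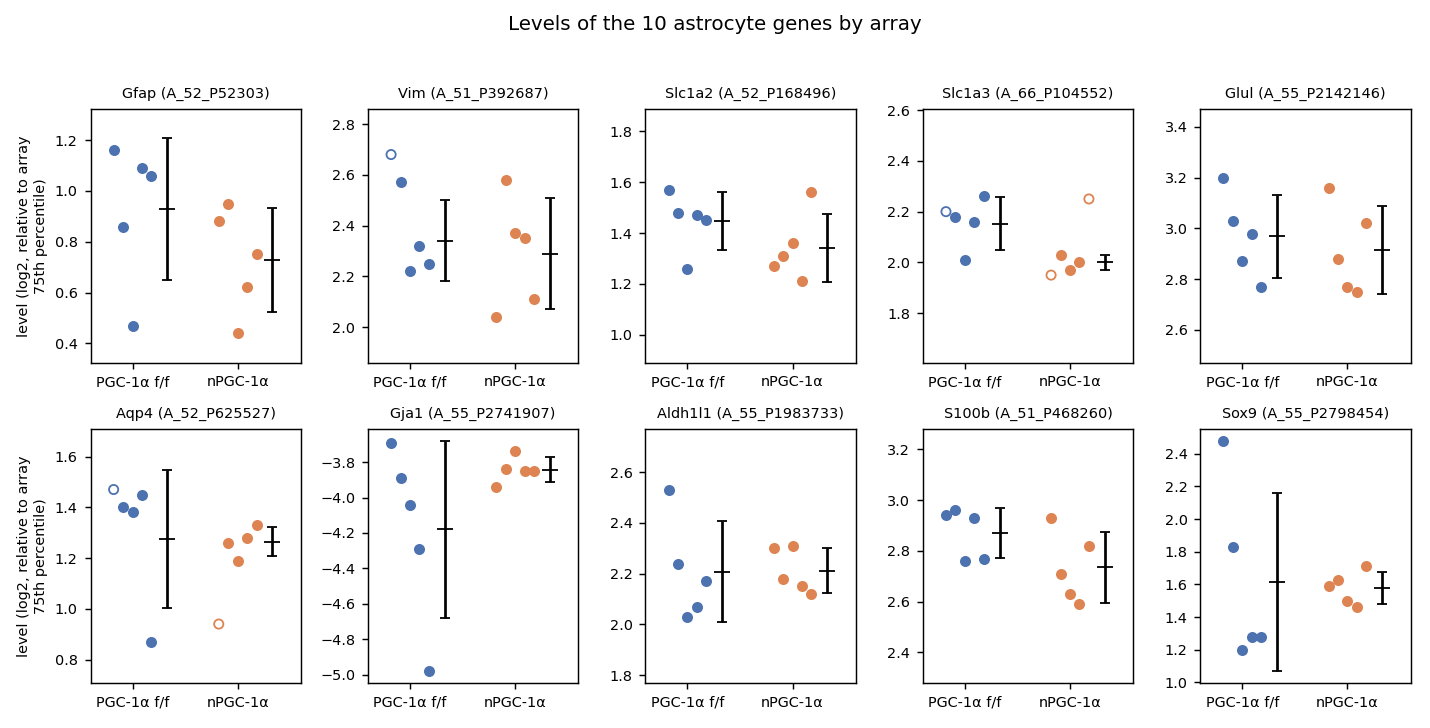
Level of each astrocyte gene on each array, by the probe that stood for the gene, in log2 units relative to the 75th percentile of the array. Filled points are arrays in the order of replicates 1 to 5, open points are values of spots marked as outliers that were left out of the test, and bars are the mean ± SD of the filled points. In every panel the filled points of the groups overlap, and PGC-1αf/f replicate 1 is the highest array in 8 of the 10 panels, open points included.

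The intermediate filament genes come first. Gfap encodes glial fibrillary acidic protein, the classic marker of astrocyte reactivity, and Vim encodes vimentin, a filament partner of GFAP. Levels are given as log2 of the signal relative to the 75th percentile of the array, so 0 equals that percentile, and they are not compared between probes. The brighter Gfap probe (A_52_P52303) read 1.16, 0.86, 0.47, 1.09 and 1.06 on PGC-1αf/f replicates 1 to 5 and 0.88, 0.95, 0.44, 0.62 and 0.75 on nPGC-1α replicates 1 to 5. Replicate 3 was the lowest in each group, and the groups overlapped. The difference was -0.20 with a standard error of 0.15 and a 95% confidence interval of -0.53 to 0.12 (limma adjusted p 0.611), a ratio of 0.87 (interval 0.69 to 1.09). It depended on single arrays, with -0.32 without PGC-1αf/f replicate 3 (limma unadjusted p 0.0292, adjusted p 0.324), -0.13 without nPGC-1α replicate 3 and -0.08 with array weights.

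The dimmer Gfap probe (A_55_P2157250), which carries the accession of another Gfap transcript, read -0.08, 0.02, -0.35, -0.10 and -0.61 in PGC-1αf/f mice and -0.73, -0.26, -0.78, -0.61 and -0.49 in nPGC-1α mice. All 5 nPGC-1α arrays lay below the PGC-1αf/f mean, yet the groups overlapped, with PGC-1αf/f replicates 3 and 5 both below nPGC-1α replicate 2. The difference was -0.35 with a standard error of 0.14 (unadjusted p 0.0332, limma adjusted p 0.373, exact permutation p 0.0556). It was -0.47 on slide 1 (adjusted p 0.281) and 0.12 on slide 2, where each group had 1 array. With 1 array left out it ranged from -0.44 without PGC-1αf/f replicate 5 (limma unadjusted p 0.00589, adjusted p 0.199) to -0.29 without PGC-1αf/f replicate 2 (unadjusted p 0.0807). Both Gfap probes thus read lower means in nPGC-1α mice, and neither passed the adjusted threshold.

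The promoter window of Gfap held none of the searched motifs. Its 250 bases before the transcription start, shown because Gfap carried the lowest unadjusted p of the listed genes' probes, are from RefSeq (GRCm38.p6, chr11:102897201-102897450, minus strand, in lower case because no searched motif matched).
Gfap: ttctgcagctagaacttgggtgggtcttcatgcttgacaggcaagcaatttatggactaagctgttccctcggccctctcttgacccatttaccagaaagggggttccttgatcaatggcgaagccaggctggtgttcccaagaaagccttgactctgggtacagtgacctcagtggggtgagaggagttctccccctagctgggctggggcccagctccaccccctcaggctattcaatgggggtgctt
Of 7 motifs searched on both strands in the windows of 8 of the 10 genes, the SOX motifs AACAAT and AACAAAG, the ERRα element TCAAGGTCA and the NRF1 motif had 0 matches. They occur in 9.42%, 5.03%, 0.387% and 0.782% of 32851 promoter windows.

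Vim had 1 probe. It read 2.57, 2.22, 2.32 and 2.25 on PGC-1αf/f replicates 2 to 5, where replicate 1 (2.68) was left out as an outlier spot, and 2.04, 2.58, 2.37, 2.35 and 2.11 on the nPGC-1α arrays. The highest and the lowest of these values were both nPGC-1α arrays. The difference was -0.05 with a standard error of 0.13 (interval -0.34 to 0.25, limma adjusted p 0.904), with -0.12 when all spots were kept and 0.05 under quantile normalisation. Vim held TTGGC, part of the site of NFI factors, at 2 places and TATAAA at bases -32 to -27 from its start.

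The genes of glutamate uptake and glutamine synthesis followed. Slc1a2 and Slc1a3 encode the transporters GLT-1 and GLAST, which clear synaptic glutamate, and Glul encodes glutamine synthetase. Slc1a2 read 1.57, 1.48, 1.26, 1.47 and 1.45 in PGC-1αf/f mice and 1.27, 1.31, 1.36, 1.21 and 1.56 in nPGC-1α mice. Replicate 3 was low in the control group and replicate 5 high in the nPGC-1α group, so the groups overlapped. The difference was -0.11 with a standard error of 0.10 (interval -0.32 to 0.10, limma adjusted p 0.677).

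For Slc1a3, the values were 2.18, 2.01, 2.16 and 2.26 on PGC-1αf/f replicates 2 to 5 and 2.03, 1.97 and 2.00 on nPGC-1α replicates 2 to 4. The probe was marked as an outlier spot on 3 further arrays, at 2.20 on PGC-1αf/f replicate 1, 1.95 on nPGC-1α replicate 1 and 2.25 on nPGC-1α replicate 5. The difference over 4 and 3 arrays was -0.15 with a standard error of 0.11 (interval -0.40 to 0.10, limma adjusted p 0.610), and with all spots it was -0.12 (adjusted p 0.616). Slc1a3 was the only 1 of the 8 genes searched to hold the STAT motif TTCNNNGAA, found in 7.02% of promoters, so its window is shown (GRCm38.p6, chr15:8710808-8711057, minus strand), with that motif and a TATAAA match on the other strand (12.4% of promoters) in capitals.
Slc1a3: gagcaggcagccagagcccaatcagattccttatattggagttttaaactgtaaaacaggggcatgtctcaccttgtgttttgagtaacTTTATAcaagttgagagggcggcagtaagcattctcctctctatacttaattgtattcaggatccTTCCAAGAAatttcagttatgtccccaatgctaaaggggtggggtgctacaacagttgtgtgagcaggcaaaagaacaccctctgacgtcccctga

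Glul had 3 probes, of which the brightest (A_55_P2142146) read 3.20, 3.03, 2.87, 2.98 and 2.77 in PGC-1αf/f mice and 3.16, 2.88, 2.77, 2.75 and 3.02 in nPGC-1α mice. Replicate 1 was the highest array in each group, and the ranges nearly coincided. The difference was -0.06 with a standard error of 0.11 (interval -0.30 to 0.19, limma adjusted p 0.866). The second probe (A_66_P134479) differed by -0.05 (adjusted p 0.876). The third and dimmest (A_52_P143866) went the other way, by 0.31 (standard error 0.25, adjusted p 0.650), and its PGC-1αf/f values spread from -0.87 to 0.23. Leaving out PGC-1αf/f replicate 2 or replicate 1 gave 0.12 or 0.16, array weights gave 0.09, and keeping outlier spots gave 0.58, since it brought in PGC-1αf/f replicate 5 at -1.67. The Glul probes thus disagreed in direction, within their errors, and the brightest read 0.04 under quantile normalisation.

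Aqp4 and Gja1 encode the water channel of the end-feet and the main gap junction protein of astrocytes. The brighter tested Aqp4 probe (A_52_P625527) read 1.40, 1.38, 1.45 and 0.87 on PGC-1αf/f replicates 2 to 5 and 1.26, 1.19, 1.28 and 1.33 on nPGC-1α replicates 2 to 5. Replicate 1 was marked as an outlier spot in both groups, at 1.47 and 0.94. PGC-1αf/f replicate 5 stood below all others tested, and the remaining 3 control arrays stood above the nPGC-1α arrays. The difference was -0.01 with a standard error of 0.14 (interval -0.33 to 0.31, limma adjusted p 0.981), and on slide 1, without replicate 5 of either group, it was -0.17 (adjusted p 0.537). A second probe (A_55_P2031939) differed by -0.14 (adjusted p 0.726). The remaining 2 Aqp4 probes were well above background on 0 and 1 of the 10 arrays and were not tested. Their means went opposite ways at this low signal. Probe A_55_P2742033 read -9.52 in PGC-1αf/f and -8.52 in nPGC-1α mice, and A_55_P2742038 read -7.53 and -8.31.

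The brightest Gja1 probe (A_52_P174915) was marked as an outlier spot on 8 of 10 arrays and was not tested. With all spots it read 1.03, 0.92, 0.90, 0.97 and 1.03 in PGC-1αf/f mice and 0.89, 0.94, 1.19, 0.98 and 1.19 in nPGC-1α mice. The nPGC-1α values thus spanned a wider range around the control values, and the difference was 0.07 (standard error 0.09, limma adjusted p 0.778).

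Gja1 was otherwise read by dim probes. Probe A_55_P2741907 read -3.69, -3.89, -4.04, -4.29 and -4.98 in PGC-1αf/f mice and -3.94, -3.84, -3.74, -3.85 and -3.85 in nPGC-1α mice. The nPGC-1α arrays lay close together, while the control arrays fell away to replicate 5. The difference was 0.33 with a standard error of 0.20 (interval -0.12 to 0.78, limma adjusted p 0.544), and without PGC-1αf/f replicate 5 it was 0.13 (adjusted p 0.656). Probe A_55_P2800487 differed by 0.43 (standard error 0.48, adjusted p 0.738), and by -0.04 without that array. PGC-1αf/f replicate 5 read -7.59 there and was not well above background. The probe was well above background on 4 of 5 PGC-1αf/f and 5 of 5 nPGC-1α arrays. It was thus tested only because of the nPGC-1α arrays. Noise differed between the groups, and its part in these dim readings was not tested.

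Aldh1l1 encodes a folate-metabolising dehydrogenase and S100b a calcium-binding protein. Aldh1l1 read 2.53, 2.24, 2.03, 2.07 and 2.17 in PGC-1αf/f mice and 2.30, 2.18, 2.31, 2.15 and 2.12 in nPGC-1α mice. PGC-1αf/f replicate 1 was the highest, and the nPGC-1α values all lay inside the control range. The difference was 0.00 with a standard error of 0.11 (interval -0.24 to 0.24, limma adjusted p 0.999), so a change beyond a ratio of 0.85 to 1.18 lies outside the interval.

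S100b read 2.94, 2.96, 2.76, 2.93 and 2.77 in PGC-1αf/f mice and 2.93, 2.71, 2.63, 2.59 and 2.82 in nPGC-1α mice. Of the nPGC-1α arrays, 4 of 5 lay below the control mean, and replicates 1 and 5 lay inside the control range. The difference was -0.14 with a standard error of 0.09 (interval -0.34 to 0.07, limma adjusted p 0.591, exact permutation p 0.127).

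Sox9, a transcription factor of astrocyte identity, had a brighter and a dimmer probe. The brighter probe (A_55_P2798454) read 2.48, 1.83, 1.20, 1.28 and 1.28 in PGC-1αf/f mice and 1.59, 1.63, 1.50, 1.46 and 1.71 in nPGC-1α mice. PGC-1αf/f replicates 1 and 2 were above, and replicates 3 to 5 below, every nPGC-1α array. The difference was -0.04 (standard error 0.22, limma adjusted p 0.959), with 0.04 under quantile normalisation and 0.18 without PGC-1αf/f replicate 1 (adjusted p 0.704).

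The dimmer Sox9 probe (A_55_P2745144) read -2.58, -2.93, -2.72, -2.87 and -2.92 in PGC-1αf/f mice and -2.51, -2.46, -2.44, -2.61 and -2.77 in nPGC-1α mice. All 5 nPGC-1α arrays lay above the control mean, and the groups overlapped. The difference was 0.25 with a standard error of 0.10 (unadjusted p 0.0352, limma adjusted p 0.382, exact permutation p 0.0397). Among the 4 arrays with high Eif2s3y, 1 against 3, it was 0.00, and among the other 6, 4 against 2, it was 0.32 (limma unadjusted p 0.0411, adjusted p 0.961). With 1 array left out the unadjusted limma p ranged from 0.0123 to 0.0811.

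**Figure D2:**
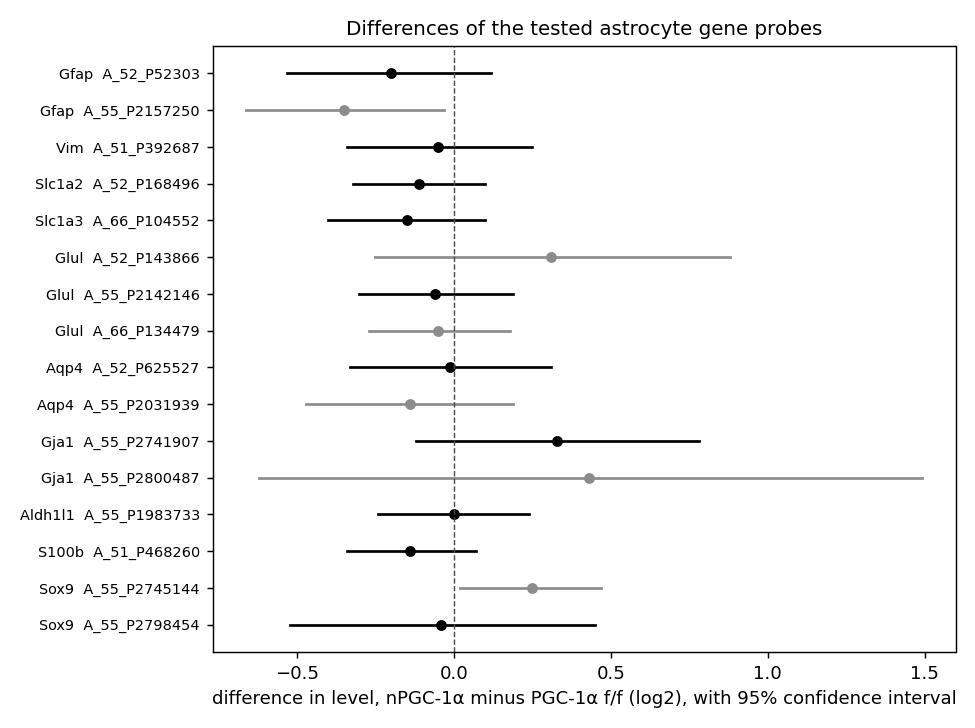
Difference in level of the 16 tested probes of the astrocyte genes, nPGC-1α minus PGC-1αf/f on the log2 scale, with points for the limma estimate and lines for the 95% confidence interval. Black marks the probe that stood for its gene and grey the other probes. Of the 16 probes, 15 were well above background on all 10 arrays, and Gja1 A_55_P2800487 was tested only because of the nPGC-1α arrays. The intervals of a Gfap probe (-0.66 to -0.03) and a Sox9 probe (0.02 to 0.47) lie on 1 side of 0, in opposite directions, and the other 14 include 0.

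Over all 16 tested probes of the 10 genes, 2 had an unadjusted p under 0.05, 1 in each direction, where 11.9% of all tested probes did (3.39% higher and 8.52% lower in nPGC-1α mice). The groups were apart without overlap for 0 of the 12 probes measured on all 10 arrays, and for 2.74% of the 34000 such probes on the array. The median standard error of the 16 probes was 0.14. In simulated data the limma test at the adjusted threshold recovered 5% of changes of 0.5, so it would miss most changes of that size or smaller.

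Among the arrays, 1 control array stood highest. PGC-1αf/f replicate 1 was the highest array for 8 of the 10 genes with all spots counted, on average 0.31 above the mean of the 10 arrays, and its Sox9 level stood 0.88 above. It had 10.5% outlier spots, the most in its group, while nPGC-1α replicate 1 had 11.6% and an average deviation of -0.04. PGC-1αf/f replicate 1 also had the lowest 75th percentile, its zero, at 3883 signal units. By median deviation it was also the highest array for endothelial, mural and fibroblast, and microglial markers (0.22, 0.48 and 0.09). It was not the highest for neuron, oligodendrocyte, precursor, stem cell, ependymal or choroid plexus markers. The part of the scale was not tested. The lowest array varied from gene to gene, with nPGC-1α replicate 4 the lowest for 3 genes and 3 other arrays for 2 genes each, and the farthest single value was Gja1 on PGC-1αf/f replicate 5, 0.97 below its mean. Among nPGC-1α arrays the average deviation ran from -0.09 to 0.04. Without PGC-1αf/f replicate 1, the median difference of the 10 genes was -0.03.

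**Figure D3:**
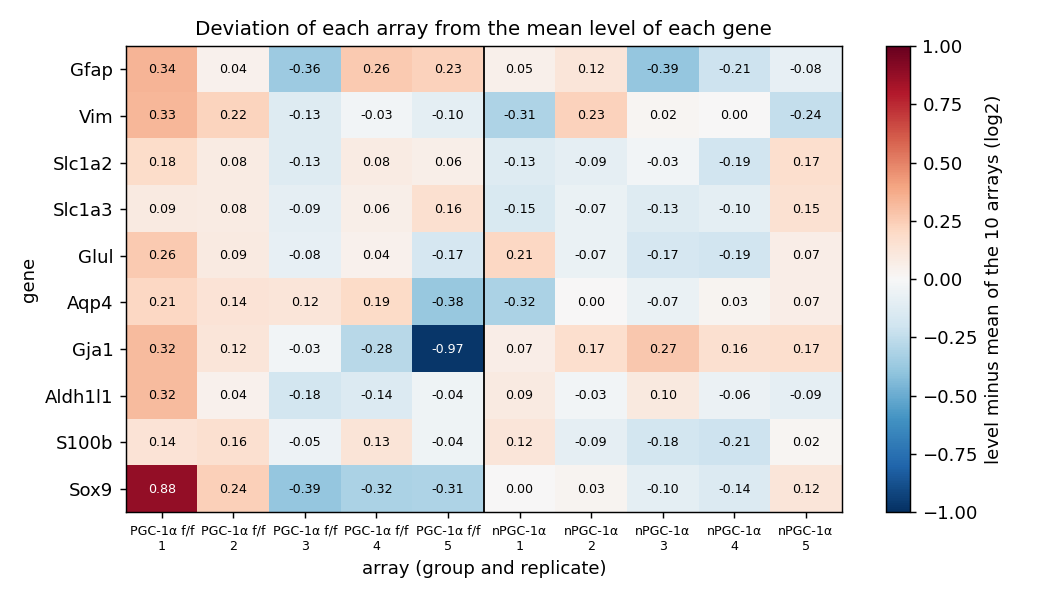
Deviation of each array from the mean level of each astrocyte gene over the 10 arrays, in log2 units, with all spots counted. Columns are arrays, split by the line into PGC-1αf/f and nPGC-1α, rows are genes, red is above and blue below the mean. The first column is red throughout, from 0.09 for Slc1a3 to 0.88 for Sox9.

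Most pairs of the genes were positively correlated across arrays, where both genes of a pair share the RNA, the array and its scale. Over the 45 pairs, with values on 7 to 10 arrays each, the median Pearson r was 0.34 and 31 pairs were positive. In a permutation test 0 pairs had an adjusted p under 0.05 and 7 an unadjusted p under 0.05. Those 7 include a negative pair, Slc1a3 and Gja1, with r -0.79 over 7 arrays. The same values for pairs of other genes were not computed, so they are not read as particular to astrocyte genes. Without PGC-1αf/f replicate 1 the median r was 0.20, and on slide 1 alone it was 0.49. The closest pair was Glul and S100b, with r 0.87 (permutation p 0.00225, adjusted 0.101) and Spearman rho 0.83 (adjusted permutation p 0.214) over 10 arrays. It was 0.90 on slide 1 and 0.86 without the 2 arrays farthest from the median Glul level. The next pair, Aldh1l1 and Sox9, had r 0.84 (permutation p 0.00688, adjusted 0.155) and rho 0.67 (adjusted permutation p 0.277), and 0.36 without the 2 farthest arrays, so it rests on those arrays.

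**Figure D4:**
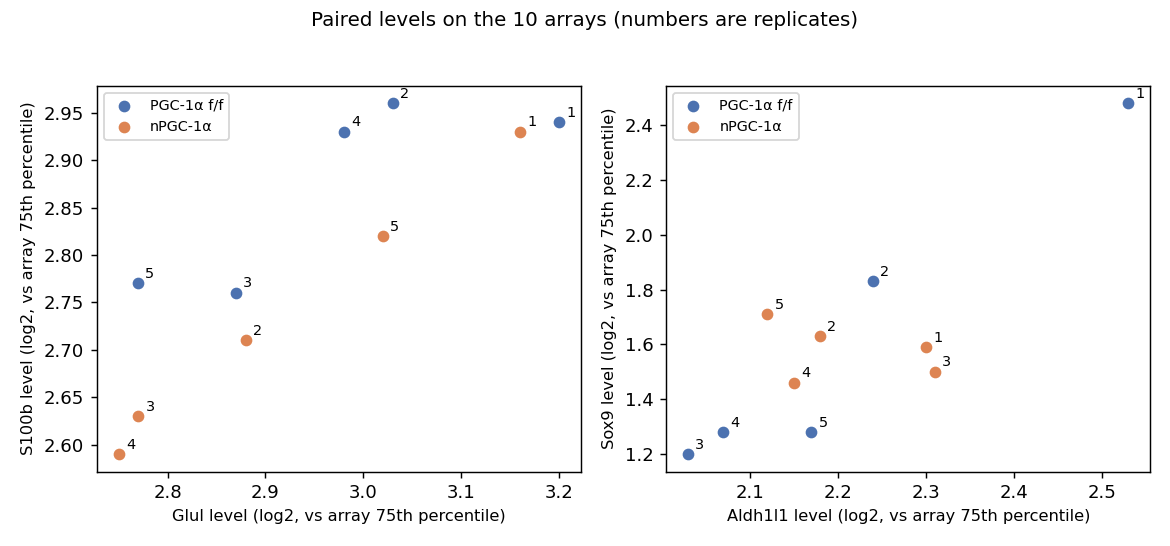
Levels of S100b against Glul and of Sox9 against Aldh1l1 on the 10 arrays, in log2 units relative to the 75th percentile of the array. Points are arrays, coloured by group and numbered by replicate. Glul and S100b spread along a line through both groups, while PGC-1αf/f replicate 1 stands alone at the upper right for Aldh1l1 and Sox9.

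Glul and S100b both held TTGGC in the 250 bases before their starts, as did Vim and Slc1a2, 4 of the 8 genes searched, beside 41.5% of all promoters. The windows of this pair are shown because it was the closest, with TTGGC or its reverse complement GCCAA in capitals (GRCm38.p6, chr1:153899679-153899928 and chr10:76253586-76253835, both plus strand).
Glul: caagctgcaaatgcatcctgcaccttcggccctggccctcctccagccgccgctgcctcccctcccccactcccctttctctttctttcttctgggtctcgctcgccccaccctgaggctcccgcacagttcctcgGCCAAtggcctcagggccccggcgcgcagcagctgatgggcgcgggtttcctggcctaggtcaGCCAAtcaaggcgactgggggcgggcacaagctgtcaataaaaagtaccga
S100b: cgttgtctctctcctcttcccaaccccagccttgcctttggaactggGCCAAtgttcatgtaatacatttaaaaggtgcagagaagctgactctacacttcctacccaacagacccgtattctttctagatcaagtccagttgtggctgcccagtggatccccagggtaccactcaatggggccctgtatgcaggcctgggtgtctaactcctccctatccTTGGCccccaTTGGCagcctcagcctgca
The matches are at bases -114 to -110 and -51 to -47 in Glul and at -203 to -199, -29 to -25 and -19 to -15 in S100b.

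Outside the 10 genes, the patterns most like their mean were those of Mtdh (Pearson r 0.969), Efcab10 (0.954), Far2 (0.954), Vsig10 (0.954) and Ccdc107 (0.951). These are the highest r among 14888 genes over the same 10 arrays after subtracting group means, given as a description. Without PGC-1αf/f replicate 1 they were 0.93, 0.90, 0.89, 0.97 and 0.96. How high the top r among so many genes would be by chance was not computed, so no link to astrocytes is drawn.

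A wider list of 59 astrocyte genes, of which 56 were tested, covered transporters, end-foot proteins, lipid metabolism, receptors, secreted proteins and transcription factors. Their median difference was -0.05, 0 were higher and 2 lower at an unadjusted p of 0.05, beside 3.18% higher and 5.03% lower of all named genes, and 0 passed the adjusted threshold. Kcnj10, the potassium channel of astrocytes, differed by -0.02, Apoe, the main lipid carrier of the brain, by -0.10, and Gjb6, another connexin, by 0.02 (limma adjusted p 0.927, 0.716 and 0.965). These 3 genes were chosen after their values were seen, for their known roles. The 56 differences ran from -0.54 to 0.37, with 36 negative and 20 positive.

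The 2 lower genes were both receptors. Bmpr1b, a receptor of bone morphogenetic proteins, read -4.79, -4.65, -5.23, -5.22 and -4.86 in PGC-1αf/f mice and -5.36, -5.38, -5.68, -5.68 and -5.38 in nPGC-1α mice. The groups did not overlap, and the difference was -0.54 with a standard error of 0.14 (unadjusted p 0.00223, limma adjusted p 0.178). The probe is dim, the noise differed between the groups, and under normexp background correction the difference was -0.30 (adjusted p 0.354). S1pr1, a sphingosine-1-phosphate receptor that vessel cells also express, was measured on 3 arrays per group, at 1.70, 1.59 and 1.59 against 1.38, 1.35 and 1.29, and differed by -0.28 (adjusted p 0.404).

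Genes known to rise in reactive astrocytes had a median difference of 0.12 over 32 tested genes of 34. At an unadjusted p of 0.05, 3 were higher and 0 lower, where 3.18% of named genes were higher and 5.03% lower, and 0 passed the adjusted threshold. The median was 0.24 for 10 genes shared by several kinds of injury, -0.09 for 11 genes linked to inflammation and 0.10 for 11 genes linked to ischaemia. Microglia, vessel and choroid plexus cells also express several of these genes. By array, the 32 genes had median deviations of -0.37 to 0.44 from their control means in PGC-1αf/f mice. In nPGC-1α mice these were -0.10 to 0.30, and the highest array was PGC-1αf/f replicate 1. The reactive lists leave out Gfap and Vim, which are among the 10 genes and differed by -0.20 and -0.05.

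Ptx3, a secreted pentraxin, differed the most by its p. It read -5.31, -5.52, -5.15, -5.16 and -4.87 in PGC-1αf/f mice and -2.83, -4.35, -4.43, -3.76 and -4.05 in nPGC-1α mice. Every nPGC-1α array was above every control array, with replicate 1 the highest. The difference was 1.32 with a standard error of 0.27 (unadjusted p 0.000507, limma adjusted p 0.119), a ratio of 2.49. This probe is dim as well, and the part of the noise in its difference was not tested.

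Cd44, a hyaluronan receptor, read -2.83, -3.20, -4.22, -4.12 and -4.29 in PGC-1αf/f mice and -2.67, -2.91, -2.98, -3.82 and -2.36 in nPGC-1α mice. The groups overlapped, and the difference was 0.78 (limma adjusted p 0.399), with 0.50 on slide 1 and 0.34 for a second Cd44 probe. S1pr3, another sphingosine-1-phosphate receptor, differed by 0.25 (adjusted p 0.308). Lcn2, a secreted lipocalin named here after its values were seen, had the largest mean difference of the list, 1.45, (standard error 0.76, adjusted p 0.481).

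**Figure D5:**
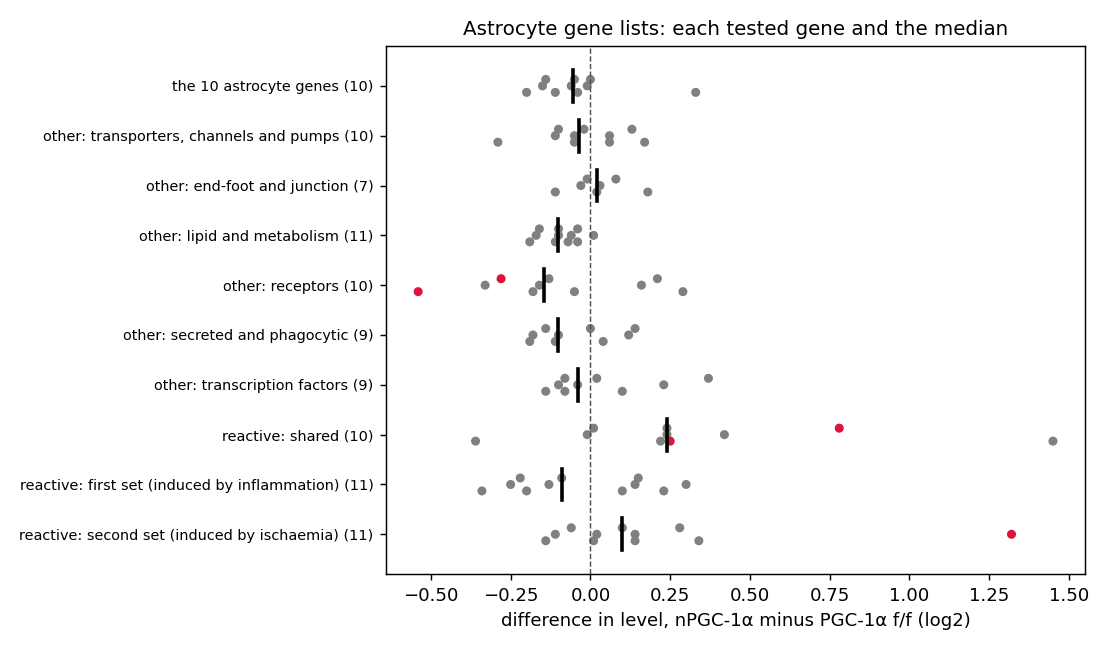
Difference in level of each tested gene, nPGC-1α minus PGC-1αf/f on the log2 scale, for the 10 astrocyte genes, 6 lists of other astrocyte genes and 3 lists of reactive astrocyte genes. Points are genes, red where the unadjusted limma p was under 0.05, black bars are list medians, and the number tested stands in brackets. Medians lie between -0.14 and 0.24, and the 2 genes farthest to the right are Lcn2 and Ptx3.

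Markers of other hippocampal cells gave median differences from -0.15 for 6 microglial genes to 0.20 for 10 oligodendrocyte genes, and 0 passed the adjusted threshold. The vessel cell channel gene Kcnj8 differed by 0.22 and the microglial gene Tmem119 by -0.21 (adjusted p 0.418 and 0.407). Choroid plexus genes differed most between arrays, with a median deviation of up to 1.82 in PGC-1αf/f mice and of 2.41 on nPGC-1α replicate 3. The part of these cell types in the astrocyte gene levels was not tested.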

How the data were processed

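Total RNA of hippocampal tissue was hybridised to 10 Cy3 Agilent arrays. Groups were taken from the sample labels. The deposited scanner files, written by Feature Extraction 11.5.1.1 per the file headers, hold a spot intensity that is background-subtracted and not normalised between arrays. A second deposited table holds log2 values the authors made with GeneSpring for 41606 probes, and it served as an alternative. Control and outlier spots were left out, log2 intensity was averaged over the spots of each probe, and the 75th percentile of each array served as its zero. Tested were the 39142 probes that were well above background on all 5 arrays of either group and had at least 3 values per group. RefSeq (GRCm38.p6) named 33767 of 56605 probes. The arrays were designed on mm9, so no probe coordinates are given.

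Differences were tested, two-sided and without covariates, with limma 3.58.1 in R 4.3.3, with Benjamini-Hochberg adjustment over all tested probes. Group means of array measures and of member probes with a value on every array were compared by exact permutation tests. Correlations were compared by permutation tests, with 100000 resamples at 10 arrays. The limma test was checked on simulated data, with 200 of the 39142 probes changed. It recovered 5% of changes of 0.5, 69.5% of changes of 1 and 93% of changes of 2 on the log2 scale. Without a change it made 0 calls. Python 3.11.15, pandas 2.3.3 and scipy 1.17.1 were also used. The number of arrays limits the precision. The members and lists were chosen with earlier results of these data known. Named were all probes of the 10 genes, and of other lists up to 4 genes with an unadjusted p under 0.05, apart from genes marked as chosen later and 1 gene that is not reported here. The labels do not say whether mice shared litters.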

Additional observations from a re-analysis of the deposited data

Results flagged for a closer look

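Of 59 groups of values examined for a sample far from the others, 6 held one, where chance gives about 1 in 20. For Aqp4 probe A_52_P625527, PGC-1αf/f replicate 5 read 0.87, against 1.38 to 1.45 on the 3 other arrays tested in its group. For Aqp4 probe A_55_P2742033, which was not well above background on any array, PGC-1αf/f replicate 1 read -8.77, against -9.75 to -9.66. Tmem119 read -0.06 on nPGC-1α replicate 5, against 0.14 to 0.20 on the other nPGC-1α arrays. PGC-1αf/f replicate 1 had 10.5% outlier spots, against 0.192% to 3.05% in its group, and a noise of 8.98 signal units, against 5.16 to 6.14. On nPGC-1α replicate 3 the noise was 20.9 signal units, against 10.7 to 13.5.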

How the results depend on the processing

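Under all 27 alternatives, 26 of them with a test, 0 of the astrocyte genes with a test passed an adjusted p of 0.05 (lowest 0.199 over their probes), and 370 of 417 probe differences kept their direction. All 10 genes had a value except among arrays with high Eif2s3y (7 genes), on slide 2 and without nPGC-1α replicate 2, 3 or 4 (9 genes each). Both splits by Eif2s3y were chosen after seeing the data. At an unadjusted p of 0.05 the count of genes, 0, became 1 under normexp background correction (Gja1) and among arrays with high Eif2s3y (Sox9), where the only control array is PGC-1αf/f replicate 1 with its high Sox9 level. It ranged from 0 to 1 with an array left out, with Gja1 gained without PGC-1αf/f replicate 1 and Gfap without PGC-1αf/f replicate 3. The median difference was 0.11 on slide 2 and -0.22 among arrays with high Eif2s3y. It ranged from -0.11 to -0.02 with an array left out.

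The following differences changed sign. Quantile normalisation gave 0.05 for Vim, 0.04 for Glul A_55_P2142146, 0.00 for Glul A_66_P134479, 0.05 for Aqp4 A_52_P625527, 0.07 for Aldh1l1 and 0.04 for Sox9 A_55_P2798454. Normexp correction gave 0.05 for Glul A_55_P2142146, 0.06 for Aqp4 A_52_P625527, 0.06 for Aldh1l1 and 0.00 for S100b. The authors' log2 values gave 0.02 for Glul A_55_P2142146 and 0.03 for Aldh1l1. The array median as the scale and slide 1 alone each gave 0.01 for Aldh1l1. Array weights gave 0.06 for Vim, 0.06 for Aldh1l1 and 0.13 for Sox9 A_55_P2798454. The mean of both Sox9 probes gave 0.11. On slide 2, with 1 array per group, the values were 0.12 for Gfap A_55_P2157250, 0.11 for Slc1a2, 0.25 and 0.04 for Glul A_55_P2142146 and A_66_P134479, 0.45 and 0.32 for Aqp4 A_52_P625527 and A_55_P2031939, 0.05 for S100b and 0.43 for Sox9 A_55_P2798454. Arrays with high Eif2s3y gave -0.15 and -0.66 for Gja1 A_55_P2741907 and A_55_P2800487 and -0.01 for Kcnj8, and the other arrays gave 0.13 for Vim, 0.03 for Aldh1l1 and 0.14 for Sox9 A_55_P2798454. With an array left out, ranges that crossed 0 were -0.12 to 0.03 for Vim, -0.12 to 0.00 for Glul A_55_P2142146, -0.15 to 0.05 for Aqp4 A_52_P625527, -0.04 to 0.69 for Gja1 A_55_P2800487, -0.05 to 0.08 for Aldh1l1 and -0.14 to 0.18 for Sox9 A_55_P2798454. The cause was not tested.

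Same-numbered arrays deviated together at 0.078 to 0.356, over 0.1 in 4 of 5 pairs, 3 of 5 arrays correlated best with their own number, and on slide 1 arrays of the same number shared a slide column. The labels do not say what the numbers mark, so pairing of the mice is not established. The replicate block gave a median difference of -0.05 and 0 genes at either threshold, turned Vim to 0.01, and moved all probes at an unadjusted p of 0.05 from 4662 to 6487. Over all probes, the count at the adjusted threshold was 1, with 4619 when dim probes were kept, 40 with the array median as the scale, 10 with array weights and 0 to 4 with an array left out. With dim probes kept, Ptx3 and Bmpr1b passed it (adjusted p 0.0289 and 0.0425), where their adjusted p otherwise stayed above the threshold and reached 0.567 and 0.961. The number of arrays and, for Gja1, Bmpr1b and Ptx3, low signal limit the precision.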
